A study of Mus musculus with 6 samples.

Results

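The 89 cytochrome P450 genes described here were the protein-coding mouse genes whose symbols consist of Cyp, a family number, a subfamily letter and a gene number, without the Cyp11 and Cyp21 genes of adrenal steroid synthesis, among 35275 genes counted. The rule reads names and no measured value. A read was found for 80 of them in at least 1 library and for 9 in none. Cytochrome P450 enzymes are haem proteins that insert an oxygen atom into lipids, hormones and foreign compounds, using electrons passed on by a reductase. Families 1 to 3 oxidise drugs and pollutants and are best known from the liver, family 4 and the Cyp2j subfamily act on fatty acids and eicosanoids, and single enzymes clear retinoic acid, activate vitamin D or open the routes by which cholesterol is turned into bile acids. In nervous tissue the best known member is Cyp46a1, the cholesterol 24-hydroxylase of neurons, through which the brain exports cholesterol.

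Transcripts were measured by RNA sequencing in 6 libraries labelled as spinal cord neurons of ICR mice, an outbred stock, taken at postnatal day 3 and cultured in DMEM medium. IG was the control left without treatment, NG was injured mechanically, and TG was injured mechanically and incubated with 75% hydrogen gas, with 2 libraries in each group. No genotype or transgene is named for any group, and the labels do not tell whether a group's libraries stem from different cultures or mice, so p-values reflect the spread between libraries alone, which may be technical. Levels are normalised reads, that is reads divided by the library's size factor, given for library A, the deeper of a group, and then for library B.

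Libraries held 15749447 to 23911141 reads assigned to genes, and the P450 genes took 0.0404% to 0.0419% of them in IG and 0.0265% to 0.0269% in NG and TG. Mitochondrially encoded transcripts took 14.2% and 17.2% of the reads in NG and 4.66% to 5.64% in the other libraries. The label of neurons was checked against markers of 14 cell types. The 8 neuron markers summed to 56495 normalised reads in IG, 34272 in NG and 70677 in TG, but 6 oligodendrocyte markers summed to 1078535 in NG and to more in IG and TG. The 12 markers of hepatocytes, the main liver cells, summed to 25967 in IG, 97.5 in NG and 59.3 in TG, whereas 6 white fat markers summed to 1067, 22144 and 699. Skeletal muscle, fibroblast and smooth muscle markers were also highest in NG. In such bulk RNA, fewer cells of a type and less RNA per cell cannot be told apart.

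The P450 genes fell into a set found in IG and a set found in all 3 groups. The first is called liver-type here, which is only a label. It was defined by read levels, no liver sample was measured, and its members Cyp2f2 and Cyp2j5 are also known from airway and kidney. With a mean of 10 normalised reads as the limit, 50 members reached it in IG, 25 in NG and 23 in TG. In 23 members the mean was at least 10 in IG while NG and TG each held at most 3 reads in their 2 libraries together. Another 23 members reached 10 in all 3 groups, and 4 members, Cyp2b10, Cyp2d10, Cyp2e1 and Cyp4b1, reached it in 1 or 2 groups but belonged to neither set. The other 30 members with a read stayed under 10 in each group. Both sets were defined from these levels, so their directions are descriptions and support nothing further.

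**Figure D1:**
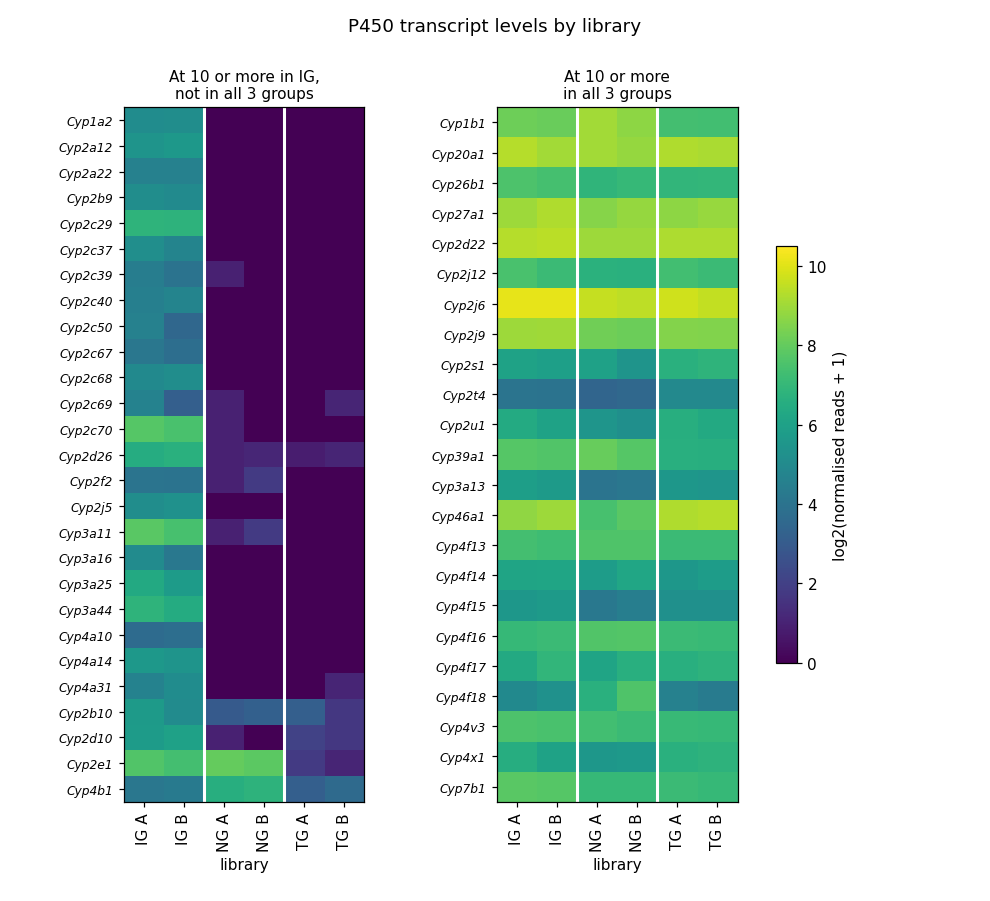
Level of the 50 P450 genes with a mean of at least 10 normalised reads in a group, as colour on a log2 scale of normalised reads plus 1, with genes in lines and the 6 libraries in columns. The 23 genes at the top of the left panel are near 0 in NG and TG, the 4 below them differ from that pattern, and the 23 of the right panel were measured at 10 or more in all 3 groups.

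Cyp3a11, Cyp3a16, Cyp2c70 and Cyp2c40 of the liver-type set each carry CAAAGTCCA, letters bound by the liver factor HNF4, in the window from 250 bases before to 50 bases after their start, and their windows are shown for that reason. They come from RefSeq on GRCm38.p6, all on the minus strand, and are written 5′ to 3′ along the gene, at chr5:145879805-145880104 for Cyp3a11, chr5:145469674-145469973 for Cyp3a16, chr19:40187237-40187536 for Cyp2c70 and chr19:39812765-39813064 for Cyp2c40. Capitals mark CAAAGTCCA, and TATAAA or its reverse TTTATA.
Cyp3a11: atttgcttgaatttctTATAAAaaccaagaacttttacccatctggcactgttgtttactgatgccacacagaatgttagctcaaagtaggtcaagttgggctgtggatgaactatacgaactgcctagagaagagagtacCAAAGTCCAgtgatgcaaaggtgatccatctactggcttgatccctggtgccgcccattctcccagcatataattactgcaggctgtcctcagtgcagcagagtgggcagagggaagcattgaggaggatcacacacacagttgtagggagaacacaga
Cyp3a16: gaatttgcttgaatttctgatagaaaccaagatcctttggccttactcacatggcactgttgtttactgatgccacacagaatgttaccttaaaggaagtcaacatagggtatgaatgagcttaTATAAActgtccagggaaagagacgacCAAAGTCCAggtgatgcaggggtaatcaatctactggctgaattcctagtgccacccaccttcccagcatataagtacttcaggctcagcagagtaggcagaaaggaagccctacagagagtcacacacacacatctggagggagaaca
Cyp2c70: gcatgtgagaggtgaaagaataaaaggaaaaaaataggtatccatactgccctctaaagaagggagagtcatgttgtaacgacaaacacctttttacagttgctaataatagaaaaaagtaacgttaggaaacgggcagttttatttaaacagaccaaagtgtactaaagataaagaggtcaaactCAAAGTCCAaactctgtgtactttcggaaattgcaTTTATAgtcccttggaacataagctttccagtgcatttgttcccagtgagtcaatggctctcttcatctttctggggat
Cyp2c40: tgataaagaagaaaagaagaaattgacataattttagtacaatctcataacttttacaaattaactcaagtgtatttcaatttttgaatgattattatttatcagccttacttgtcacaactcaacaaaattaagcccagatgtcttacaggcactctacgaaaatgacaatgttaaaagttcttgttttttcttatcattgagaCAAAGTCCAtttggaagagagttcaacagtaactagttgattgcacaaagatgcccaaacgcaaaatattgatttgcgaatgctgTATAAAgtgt

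The HNF4 letters began 109, 99, 64 and 45 bases before the start in these 4 windows, in the order shown. The TATAAA letters lay 29 bases before the start in Cyp2c70, but 234 and 126 bases before it in Cyp3a11 and Cyp3a16 and 40 bases after it in Cyp2c40, so that only the first lies where a TATA box usually does. In RefSeq, 71 of the 89 members had a window, 80 windows in all. CAAAGTCCA was in 7 of the 22 windows of the liver-type set, or 31.8%, in none of the 20 windows of the set found in all 3 groups, and in 0.475% of all 32851 windows of this length. With CAAAGGTCA, a second form of these letters, the share was 40.9% against 0.95%, where the 2 added windows are starts of 1 gene, Cyp3a25. TATAAA was in 63.6%, 5% and 13.6% of these windows. It was not particular to the liver-type set: it was in 66.7% of the 6 windows of members without a read. It was also in 39.3% of the 28 windows of members under 10 in each group. In the 4 windows of Cyp2b10, Cyp2d10, Cyp2e1 and Cyp4b1 the share was 50%. CAAAGTCCA was in 7.14% of the 28 windows, or 14.3% with the second form, and in none of the 6 or the 4. All letters were searched on both strands, and these windows and sets were chosen after the values were seen. Paralogs of a cluster share promoter sequence and are not independent. Several starts of 1 gene are not independent either: the 22 windows came from 20 genes and the 20 windows from 17. A match is a description of the letters and no sign that a factor is bound.

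The promoter windows of Cyp46a1 and Cyp1b1, 2 members found in all 3 groups, are shown as examples from that set. They come from the same source and lie at chr12:108334066-108334365 on the plus strand for Cyp46a1 and chr17:79715012-79715311 on the minus strand for Cyp1b1. Capitals mark GCGTG or its reverse CACGC, the core letters bound by the aryl hydrocarbon receptor.
Cyp46a1: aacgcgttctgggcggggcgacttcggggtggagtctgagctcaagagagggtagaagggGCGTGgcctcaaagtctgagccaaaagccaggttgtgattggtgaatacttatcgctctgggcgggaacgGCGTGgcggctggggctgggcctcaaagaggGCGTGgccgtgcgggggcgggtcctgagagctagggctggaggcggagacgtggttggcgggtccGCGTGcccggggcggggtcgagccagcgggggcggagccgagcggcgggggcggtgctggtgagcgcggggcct
Cyp1b1: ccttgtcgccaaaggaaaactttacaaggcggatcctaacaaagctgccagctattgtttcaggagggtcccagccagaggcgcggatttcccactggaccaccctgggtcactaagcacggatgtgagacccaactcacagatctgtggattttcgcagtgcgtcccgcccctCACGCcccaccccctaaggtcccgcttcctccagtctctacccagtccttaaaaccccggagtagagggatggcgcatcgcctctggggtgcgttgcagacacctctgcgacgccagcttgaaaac

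The Cyp46a1 window held 31 CG pairs, the most in the set found in all 3 groups, and 4 matches to GCGTG. The Cyp1b1 window held 16 and 1, fewer than the 20 and 2 of Cyp20a1 in the same set. GCGTG was in 40% of the windows of the set found in all 3 groups, in 4.55% of those of the liver-type set and in 32.4% of all windows. The median number of CG pairs was 4, 2 and 7 in the same order. It was also 2 in the windows of members without a read and of members under 10 in each group. Besides these letters, GTTAAT, bound by HNF1, was in 18.2% of the liver-type windows, 5% of those found in all 3 groups and 7.10% of all windows. Members without a read and members under 10 in each group had it in 16.7% and 14.3% of their windows. TTGCNNAA, bound by C/EBP, was in 31.8%, 30% and 10.8%. Of the 6 windows behind the 30%, 4 are starts of 1 gene, Cyp4f14, so the likeness of the first 2 shares rests largely on that gene.

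**Figure D2:**
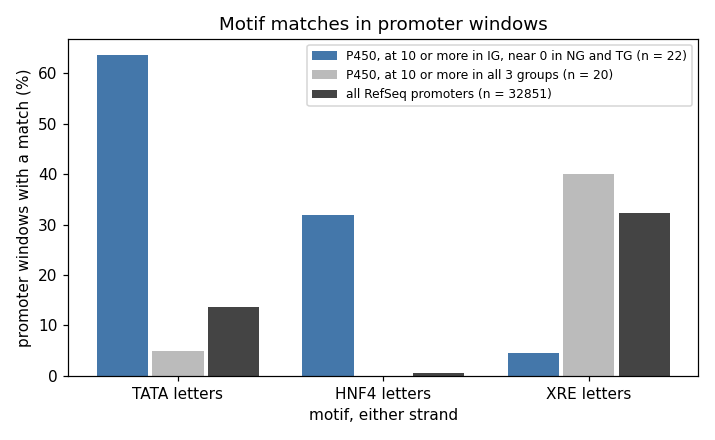
Share of promoter windows, in percent, with TATAAA, CAAAGTCCA or GCGTG on either strand, for the 22 windows of the liver-type set, the 20 windows of the set found in all 3 groups and all 32851 RefSeq windows. The liver-type set has the highest bars for TATAAA and CAAAGTCCA, at 63.6% and 31.8%, and the lowest for GCGTG, at 4.55%.

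The question behind NG against IG is what mechanical injury does to these cells. A limma test over all 24511 genes with a read, two-sided and with Benjamini-Hochberg adjustment over all of them, called 49 of the 80 P450 genes at an adjusted p under 0.05, of which 6 were higher and 43 lower in NG. Over all genes 40.1% were called, 19.7% higher and 20.4% lower. Of the 43 lower calls, 23 were of the liver-type set, which was selected for being high in IG alone. The 23 members found in all 3 groups gave 3 higher and 12 lower calls, with a median log2 fold change of -0.40. The median log2 fold change of the P450 genes was -0.77, against 0 over all genes. With bounds it was -0.84 over 68 members. For this, genes that lacked reads in a group were set to their smallest possible change. The 12 members at 3 reads or fewer in both groups were left out. The median over all genes had no such treatment. The authors' deposited table called 39 of these genes, all of them among the 49, with 31.0% of all genes called. Cyp2c69, Cyp2d22, Cyp26b1, Cyp26c1 and Cyp27a1 were among the 10 it did not call. In 50 of the 80 members both NG libraries lay below both IG libraries, as in 30.2% of all genes, and in 12 they lay above, as in 32.3% of all genes. The calls of Cyp1b1, Cyp2b10, Cyp2c69, Cyp2j6, Cyp2j12, Cyp2u1, Cyp4f18, Cyp4x1, Cyp26b1, Cyp26c1 and Cyp27a1 were lost in at least 1 of the 6 fits that left out 1 library, with their direction unchanged. With 2 libraries a group, an exact permutation test of a single gene cannot go below 0.333.

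The comparison of TG with NG asks what hydrogen does to injured cells. Here limma called 26 P450 genes, 12 higher and 14 lower in TG, against 45.3% of all genes, 22.2% higher and 23.1% lower. The share of P450 genes called was thus below that of all genes, and 41 of the 80 held at most 3 reads in both groups, where no fold can be given. The median log2 fold change was 0, as over all genes. The authors' deposited table called 13, all among the 26, with 37.5% of all genes called. The other 13 were Cyp2d10, Cyp2d22, Cyp2f2, Cyp2j9, Cyp2j12, Cyp2j13, Cyp3a11, Cyp4f13, Cyp4f15, Cyp17a1, Cyp24a1, Cyp26a1 and Cyp26c1. Without library A or B of TG the limma count was 12 or 17. Calls of 14 named genes were lost in at least 1 of the fits that left out 1 library: those of Cyp2d10, Cyp2d22, Cyp2f2, Cyp2j9, Cyp2j12, Cyp2s1, Cyp2u1, Cyp3a11, Cyp4f13, Cyp4f15, Cyp4x1, Cyp17a1, Cyp26a1 and Cyp26c1.

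For TG against IG, injured and hydrogen-treated against untreated cells, limma called 36 P450 genes, all lower in TG, against 11.3% of all genes, 4.16% higher and 7.18% lower. At an unadjusted p under 0.05, 6 members were higher and 46 lower, against 11.2% and 13.1% of all genes. The authors' deposited table called 33, of which 32 were shared and the other, Cyp46a1, was higher. The count rests on each library: without library A or B of IG it was 14 or 17, and without library A or B of TG it was 0, when 2 and 0 of all genes were called and 41 and 45 members were lower at an unadjusted p under 0.05, against 11.1% and 10.6% of all genes. The calls of Cyp2b10, Cyp2c69, Cyp2j6, Cyp2j9, Cyp4a31, Cyp7b1, Cyp8b1 and Cyp26b1 were lost in each of the 6 fits that left out 1 library. The median log2 fold change of the members was -0.85, against 0.01 over all genes, and it was -0.98 with bounds. The liver-type set, selected for being high in IG alone, gave 23 of the 36 lower calls. The 23 members found in all 3 groups gave 6, with a median of -0.28. Each group enters 2 of the 3 comparisons, so these are not independent of each other.

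The liver-type set came to 2659 reads in the 2 IG libraries, 11 in NG and 4 in TG, and 16 of its 23 genes had no read in NG or TG. Summed over the set, normalised reads were 1305 and 1129 in IG, 5.83 and 6.03 in NG and 0.804 and 3.42 in TG. By role, 14 belonged to the drug-oxidising subfamilies of family 2, 4 to Cyp3a, 4 to the fatty acid enzymes of Cyp4a and Cyp2j, and 1, Cyp1a2, to family 1. All 23 were called lower in NG and in TG against IG, a direction that their selection by level fixed in advance. For the 17 without a read in NG, IG was at least 7.48-fold to 69.3-fold higher, with 3 reads over the group taken as the floor.

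Cyp3a11, the main Cyp3a enzyme of adult mouse liver, lies on chromosome 5 at 145854426 to 145879964 of mm10, on the minus strand. Its normalised reads were 224 and 174 in IG, 0.972 and 2.41 in NG and 0 and 0 in TG. All IG values were far above the others, and 439 reads in IG stood against 3 in NG, a ratio of 126 with a 95% counting interval of 42.9 to 615, and 0 in TG, so that IG was at least 144-fold higher than TG. The adjusted p was 1.89e-05 for NG and 4.72e-05 for TG against IG. Of NG and TG, TG was lower, with an adjusted p of 0.0358 on 3 reads against 0.

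The Cyp3a subfamily as a whole, 7 genes of chromosome 5, summed to 513 and 387 in IG, a mean of 18.4 in NG and 46.7 and 43.4 in TG. Nearly all of what was left in NG and TG was Cyp3a13, a member with wide expression outside the liver. Cyp3a44 had 113 and 88.2 in IG, Cyp3a25 had 82.8 and 53.4, and Cyp3a16, an enzyme of newborn liver in mice, had 32.5 and 17.4, and none of these had a read in NG or TG. Cyp3a59 stayed at a mean of 2.51 in IG and Cyp3a57 at a single read in NG.

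Cyp2c70, which in mice makes the muricholic acids of bile, lies on the minus strand of chromosome 19 at 40153353 to 40187333. Its levels of 209.8 and 176 in IG stood against 0.972 and 0 in NG and 0 and 0 in TG. A single read in NG against 423 in IG gave a ratio of 365 with a counting interval of 65.2 to 14454, and IG was at least 139-fold higher than TG. The limma adjusted p was 1.4e-05 and 6.38e-05. Cyp2c29, a drug- and lipid-oxidising enzyme of mouse liver, had 114 and 109 in IG and no read elsewhere, and the 15 Cyp2c genes together, between 39007019 and 44029208 on chromosome 19, summed to 516 and 430.4 in IG, 2.92 and 1.21 in NG and 1.61 and 3.42 in TG. The cluster was near 0 outside IG. Of its other members, Cyp2c37, Cyp2c39, Cyp2c40, Cyp2c50, Cyp2c67, Cyp2c68 and Cyp2c69 had means from 14.9 in Cyp2c67 to 32.5 in Cyp2c68 in IG.

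Some of these genes are near copies of each other. In 16 of the 23, at least 10% of the 50-base words of the longest transcript also occurred in another gene. The shares were 72.1% in Cyp2c40, 54.8% in Cyp2c69, 52.8% in Cyp2c67 and 43.3% in Cyp2c68, so the division of reads among them is uncertain. The longest transcripts of Cyp3a11 and Cyp2c70 shared none. Cyp3a16, however, shared 10.7% of its words, most of all with Cyp3a11 in another of its transcripts, so reads of Cyp3a11 are not free of this doubt. Cyp2c69 also had the widest spread of any member at 10 or more, 24.0 and 8.12 in IG. The genes with which these 4 Cyp2c genes shared most words, Cyp2c40 and Cyp2c69, are of the same subfamily. In the set found in all 3 groups, 1 gene, Cyp4f16, shared that many words.

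The remaining liver-type genes followed the same order of groups. In family 2, Cyp2d26 had 90.6 and 99.8 in IG, 0.972 and 1.21 in NG and 0.804 and 1.14 in TG, which with 2 reads in NG was a ratio of 87.6, with a counting interval of 23.9 to 728. Cyp2a12 had 41.8 and 47.6, Cyp2a22 had 23.2 in both libraries, Cyp2b9 had 34.1 and 31.3, and none of these had a read outside IG. Cyp2f2, the naphthalene-oxidising enzyme of mouse airway and liver, had 15.5 and 15.1 in IG, 0.972 and 2.41 in NG and none in TG. Both Cyp2a genes and Cyp2b9 lie in the large P450 cluster of chromosome 7.

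Among the fatty acid enzymes, Cyp4a14 and Cyp4a10, hydroxylases that in mouse liver follow the receptor PPARα, had 48.0 and 41.8 and 11.6 and 12.8 in IG and no read in NG or TG. Cyp4a31 had 24.0 and 33.6 in IG, none in NG and 1 read in TG. Cyp2j5, an epoxygenase of mouse kidney and liver, had 34.1 and 38.3 in IG and no read elsewhere, unlike its neighbours Cyp2j6 and Cyp2j9 described below. Cyp1a2, which oxidises caffeine and oestrogens in liver, had 33.3 and 34.8 in IG and none in NG or TG, with at least 23.9-fold more in IG than in TG.

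The hepatocyte markers moved with this set. All 12 were called lower in NG and in TG against IG, and their median log2 fold changes were -8.08 and -8.13. Albumin itself, Alb, had 12178 and 11346 in IG, 37.9 and 31.3 in NG and 4.02 and 5.70 in TG. None of the 12 was at 0 in IG or NG, and 1, Mat1a, was at 0 in TG. The part of liver RNA in these P450 differences was not tested.

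**Figure D3:**
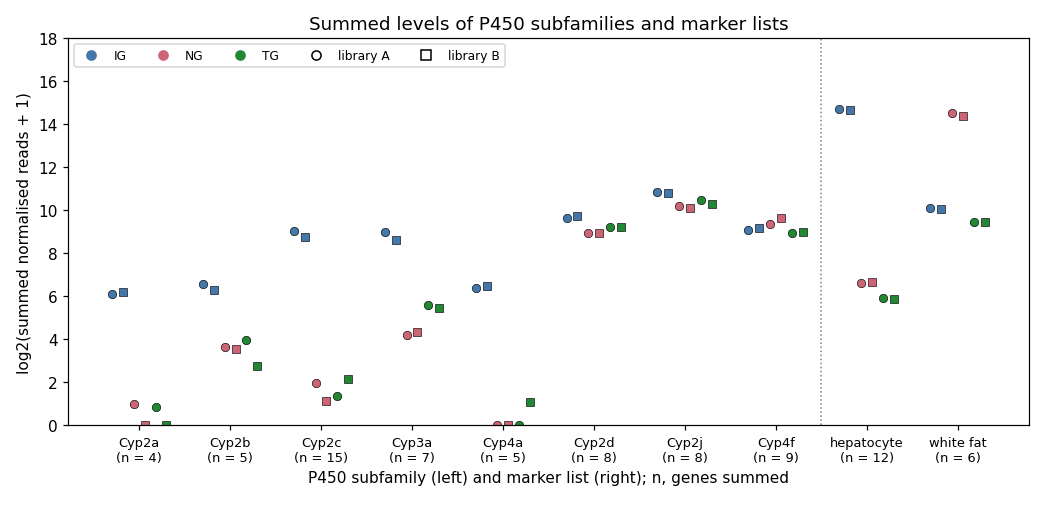
Summed level of 8 P450 subfamilies and of the hepatocyte and white fat marker lists in each library, as log2 of summed normalised reads plus 1, with circles for library A, squares for library B and 1 colour for each group. Cyp2a, Cyp2b, Cyp2c, Cyp3a and Cyp4a are highest in IG as the hepatocyte markers are, while Cyp2d, Cyp2j and Cyp4f stay within a narrow range.

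In the list of the drug-oxidising Cyp2a to Cyp2g subfamilies, 30 of 35 genes had a read, and 14 of these belong to the liver-type set. Of the 30, 22 were lower in NG against IG, with a median log2 fold change of -3.04, or -3.46 with bounds, and 20 were lower in TG against IG. In TG against NG 2 were higher and 2 lower, where 22.2% of all genes were higher and 23.1% lower. The shares of all genes that were lower were 20.4% in NG against IG and 7.18% in TG against IG. Of the 16 outside the liver-type set, 8 were lower in NG against IG, with a median of -0.85, and 6 in TG against IG, with -1.39.

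Cyp2e1, the ethanol-oxidising enzyme, lies on the plus strand of chromosome 7 at 140763739 to 140774987. Normalised reads were 198 and 161 in IG, 257 and 229 in NG and 2.41 and 1.14 in TG. NG lay above IG without reaching the threshold, at a log2 fold change of 0.44 ± 0.28 (SE) and an adjusted p of 0.276, whereas TG was lower than NG by far, at -6.49 ± 0.28 and an adjusted p of 1.08e-06, and lower than IG, at -6.06 ± 0.28 and 2.31e-05. Cyp2e1 is a liver enzyme that fat cells also express. Its level in NG was above IG while the hepatocyte markers there were at 97.5 normalised reads in sum, and the white fat markers were at 22144. In TG, where it was near 0, both lists were low, at 59.3 and 699. The part of either cell type in the level of Cyp2e1 was not tested.

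Cyp2d10, an enzyme of the Cyp2d cluster of chromosome 15, had 52.6 and 62.6 in IG, 0.972 and 0 in NG and 3.22 and 2.28 in TG. It was lower in NG, with an adjusted p of 5.62e-05, and in TG, with 0.00152, and 40.5% of its 50-base words occur in Cyp2d11 or other genes. Cyp2b10, a target of the receptor CAR in mouse liver, had 51.9 and 32.5 in IG, 6.80 and 8.44 in NG and 8.04 and 2.28 in TG. It fell in NG and TG against IG, at adjusted p-values of 0.00923 and 0.0101. In fits without 1 library these calls of Cyp2b10 were lost in 4 and 6 of 6, with log2 fold changes of -1.96 to -2.63 for NG and -2.22 to -3.67 for TG.

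Cyp2d22, which unlike the other Cyp2d genes is found in mouse brain, stood at 635 and 675 in IG, 495 and 495 in NG and 590.5 and 596 in TG. Its log2 fold change was -0.40 in NG against IG, with an adjusted p of 0.00589, and 0.26 in TG against NG, with 0.0372. Both calls were lost in the authors' deposited table, and the second also under upper quartile scaling. NG was the lowest group and did not overlap the others, and TG against IG had an adjusted p of 0.38.

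Per kb of exon, the leading P450 transcripts over all 6 libraries were Cyp2j6 at 244 normalised reads per kb, Cyp20a1 at 242, Cyp27a1 at 217, Cyp2d22 at 149, Cyp46a1 at 131 and Cyp2j9 at 116. Cyp7b1, Cyp2j12, Cyp2e1 and Cyp39a1 followed at 74.1 to 59.1. In IG and in NG the same 4 genes led, with Cyp2j6 first in IG, at 306, and Cyp20a1 first in NG, at 215. Cyp20a1 and Cyp27a1, at 254 and 253 per kb in IG, were closer to each other than their libraries were. In TG Cyp46a1 stood in the fourth place at 191 per kb. Cyp20a1, a P450 of unknown substrate, had 634 and 526 in IG, 523 and 462 in NG and 599 and 579.6 in TG, and passed the threshold in no comparison, at adjusted p-values of 0.156, 0.104 and 0.935.

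Of the 23 members found in all 3 groups, 15 had their lowest mean in NG and 5 their highest. In NG against IG 3 of them rose and 12 fell, against 19.7% and 20.4% of all genes. In TG against NG 10 rose and 5 fell, against 22.2% and 23.1%, and in TG against IG 6 fell, against 7.18%. Over all members at 10 or more in a group, 50 in IG, 25 in NG and 23 in TG, the 2 libraries mostly differed little. The higher library exceeded the lower by a median of 1.14-fold in IG, 1.13-fold in NG and 1.07-fold in TG. The 50 in IG include the liver-type set.

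**Figure D4:**
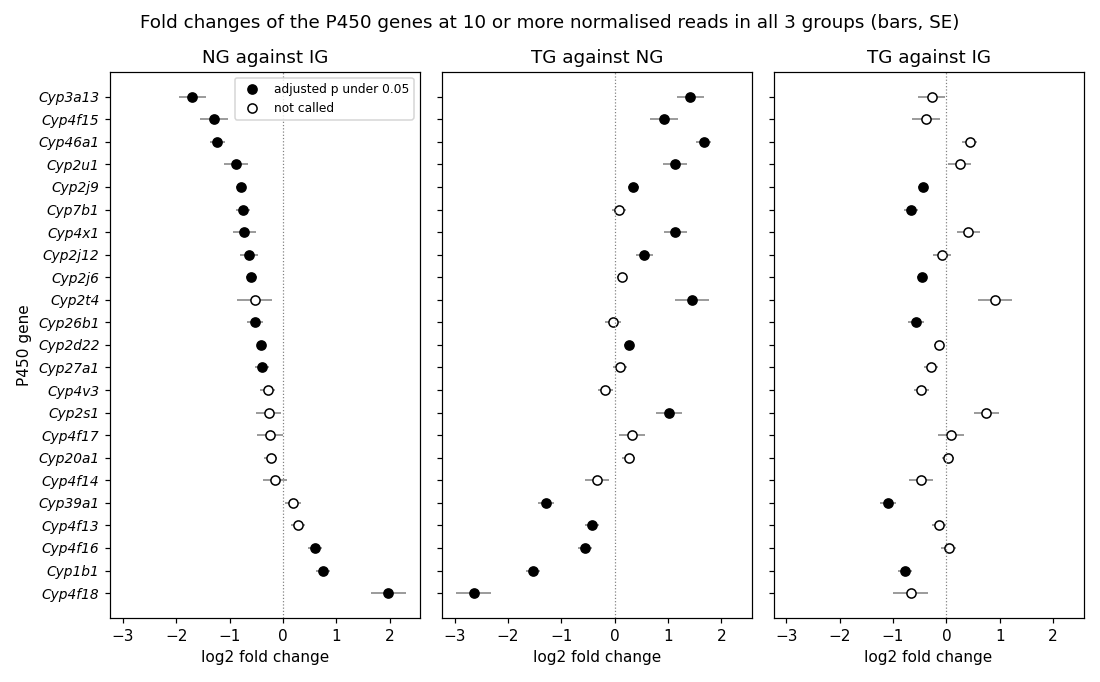
Log2 fold change in each of the 3 comparisons for the 23 P450 genes with a mean of at least 10 normalised reads in all groups, ordered by NG against IG, with bars of 1 SE and filled points where the limma adjusted p was under 0.05. Genes at the top, from Cyp3a13 at -1.70 on, were lower in NG and mostly higher in TG than in NG, and those at the bottom, down to Cyp4f18 at 1.98, the opposite.

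Sterol enzymes made up 4 of these. Cyp46a1 lies on the plus strand of chromosome 12 at 108334381 to 108362234, beside the window printed above. Its levels were 437 and 492 in IG, 173 and 224 in NG and 607 and 649 in TG, so that the 3 groups did not overlap. The log2 fold change was -1.23 ± 0.14 (SE) in NG against IG, with an adjusted p of 0.000183, 1.67 ± 0.14 in TG against NG, with 2.25e-05, and 0.44 ± 0.14 in TG against IG, with 0.0899. The last passed the threshold in the authors' deposited table and in a fit of the 4 libraries compared. The 8 neuron markers moved with it, all 8 lower in NG against IG and all 8 higher in TG against NG, and 3 of them higher in TG against IG. Their median log2 fold changes were -0.70, 1.02 and 0.38. Other neural lists moved in the same way: of 6 oligodendrocyte markers 5 fell in NG against IG and 6 rose in TG against NG. Of 6 astrocyte markers 6 fell and 5 rose. Median log2 fold changes were -1.29, 1.42 and 0.22 for oligodendrocyte markers and -0.88, 0.61 and -0.31 for astrocyte markers. The part of these cell types in the level of Cyp46a1 was not tested.

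Cyp39a1, the 7α-hydroxylase of the 24-hydroxycholesterol that Cyp46a1 makes, lies on the plus strand of chromosome 17 at 43667425 to 43751431 and differed in another way. It had 214 and 199.5 in IG, 264 and 212 in NG and 96.5 and 95.8 in TG. TG lay below both other groups, whose ranges overlapped, with a log2 fold change of -1.29 ± 0.15 against NG, at an adjusted p of 0.000151, and -1.10 ± 0.15 against IG, at 0.00267. NG against IG gave 0.19 ± 0.15 and an adjusted p of 0.363.

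Cyp27a1, the mitochondrial sterol 27-hydroxylase, had 499 and 602 in IG, 386 and 452 in NG and 423 and 471 in TG. It was lower in NG against IG at -0.39, with an adjusted p of 0.0412, a call that was lost in the authors' deposited table, under upper quartile scaling and without any 1 of the 6 libraries. Cyp7b1, the oxysterol 7α-hydroxylase, had 221 and 211 in IG, 128 and 129 in NG and 143 and 130.1 in TG, and was lower than IG in NG, at -0.74 and an adjusted p of 0.00248, and in TG, at -0.66 and 0.0168, a call lost in 6 of 6 fits without 1 library. The bile acid enzymes of liver were near 0. Cyp7a1, the rate-limiting enzyme of bile acid synthesis, had 3 reads in IG and none in NG and TG, and Cyp8b1, the sterol 12α-hydroxylase, had means of 6.0 in IG, 1.57 in NG and 0.402 in TG, with an adjusted p of 0.0302 for TG against IG. That call of Cyp8b1 was lost in the authors' deposited table and in 6 of 6 fits without 1 library. Of the 6 sterol genes, 3 fell in NG against IG, 1 rose and 1 fell in TG against NG, and 3 fell in TG against IG. In the same order, 40.1%, 45.3% and 11.3% of all genes were called.

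**Figure D5:**
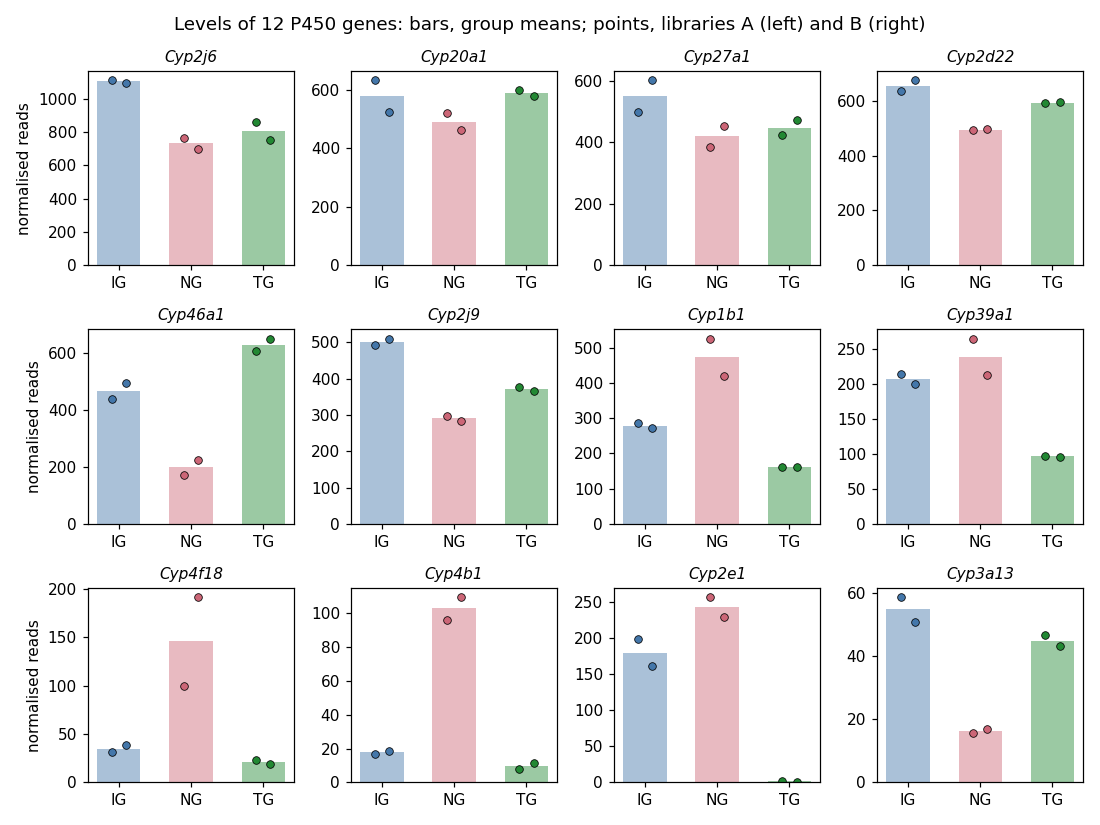
Normalised reads of 12 P450 genes in each library, shown as points for library A on the left and library B on the right of a bar for the mean of the group, with axes from 0. Cyp46a1, Cyp2j9 and Cyp3a13 are lowest in NG, Cyp1b1, Cyp4f18 and Cyp4b1 are highest there, and Cyp2e1 and Cyp39a1 are lowest in TG.

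The Cyp2j genes are epoxygenases of arachidonic acid. Cyp2j6, the leading P450 transcript in IG, had 1112 and 1095 in IG, 766 and 700.1 in NG and 861 and 751 in TG, and fell against IG in NG, at -0.59 with an adjusted p of 0.00136, and in TG, at -0.46 with 0.019, which was lost in 6 of 6 fits without 1 library. Cyp2j9, known from mouse brain, had 492 and 510.4 in IG, 297 and 283 in NG and 376 and 365 in TG. The 3 groups of Cyp2j9 did not overlap, and all 3 comparisons passed, at -0.79, 0.35 and -0.43 with adjusted p-values of 0.000296, 0.0167 and 0.0246. The last call was lost in 6 of 6 fits without 1 library, and the second in the authors' deposited table. Cyp2j12 had 177 and 142 in IG, a mean of 102 in NG and 160.1 and 140.3 in TG, lower in NG at -0.64, with 0.0154, and higher in TG than NG at 0.56, with 0.0242. Cyp2j7 and Cyp2j11 had no read.

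Cyp2u1, which hydroxylates long fatty acids in brain, and Cyp4x1, another brain P450, were also lowest in NG, with their highest mean in TG. Cyp2u1 had 83.6 and 66.1 in IG, 43.7 and 36.2 in NG and 94.1 and 83.3 in TG, and was higher in TG than NG by 1.14 on the log2 scale, with an adjusted p of 0.00301. Cyp4x1 had 92.9 and 66.1, 45.7 and 48.2, and 101 and 108 in the same order, with 1.14 and 0.00274. Cyp4x1 overlaps exons of the antisense gene Cyp4x1os, and without knowledge of strand in the counting their reads cannot be told apart.

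Family 4 held members that moved the other way. Cyp4b1, which activates several lung toxins and hydroxylates fatty acids, lies on the minus strand of chromosome 4 at 115624725 to 115647723. It had 17.0 and 18.6 in IG, 96.2 and 109.7 in NG and 8.04 and 11.4 in TG. NG lay well above both other groups, at a log2 fold change of 2.47 ± 0.30 against IG, with an adjusted p of 0.000281, and TG was lower than NG by -3.29 ± 0.30, with 3.71e-05. TG against IG did not pass, at -0.83 and 0.132.

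Cyp4f18, which in mouse neutrophils inactivates leukotriene B4, had 31.0 and 38.3 in IG, 100.1 and 192 in NG and 23.3 and 19.4 in TG. The NG libraries were 1.91-fold apart, the widest spread of any member at 10 or more there, but both lay above all others, at 1.98 ± 0.33 against IG, with an adjusted p of 0.0016, and -2.65 ± 0.33 for TG against NG, with 0.000228. Its exons overlap those of Zfp961 on the other strand. Cyp4f16 was also higher in NG, at 199 and 208 against 129 and 140.4 in IG and 141 and 136 in TG, with adjusted p-values of 0.0077 and 0.00929. Cyp4f15 was lower, at a mean of 19.6 against 46.5 and 52.2 in IG and 37.8 and 37.7 in TG, with 0.00463 and 0.0206. Cyp4f13 of the same subfamily had 165 and 152 in IG, 194 and 193 in NG and 142 and 144 in TG, and was lower in TG than NG at -0.43, with 0.025. The Cyp4f genes therefore did not share a direction, and Cyp4f14 and Cyp4f17 passed in no comparison. Cyp4v3, related to the human gene of a retinal dystrophy, had 189.7 and 176 in IG, 158 and 141 in NG and 133 and 131 in TG and did not pass either.

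Over the 23 fatty acid and eicosanoid enzymes with a read, 3 rose and 10 fell in NG against IG, against 19.7% and 20.4% of all genes. In TG against NG 5 rose and 6 fell, shares near the 22.2% and 23.1% of all genes. In TG against IG 6 fell, against 7.18% of all genes. Of the lower calls in each comparison with IG, 4 were of the liver-type set: Cyp2j5, Cyp4a10, Cyp4a14 and Cyp4a31. That set was selected for being high in IG alone, so their direction was fixed in advance. The median log2 fold changes were -0.29, 0 and -0.48, and -0.29, -0.33 and -0.46 with bounds and without genes at 3 reads or fewer in both groups. Markers of fat, fibroblasts and smooth muscle were highest in NG, as Cyp4b1 and Cyp4f18 were: all 6 fat markers and all 6 smooth muscle markers rose in NG against IG and fell in TG against NG. None of these 12 was at 0 in any group, and their part in these genes was not tested.

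Family 1 enzymes are induced through the aryl hydrocarbon receptor. Cyp1b1, which also oxidises steroids and retinoids outside the liver, lies on the minus strand of chromosome 17 at 79701537 to 79715061. It had 286 and 271 in IG, 526 and 419 in NG and 163 and 161 in TG, with no overlap between the groups. The log2 fold change was 0.75 ± 0.13 (SE) in NG against IG, -1.53 ± 0.13 in TG against NG and -0.78 ± 0.13 in TG against IG, with adjusted p-values of 0.00219, 2.72e-05 and 0.00715. The TG against IG call was lost without any 1 of the 4 libraries compared, at -0.75 to -0.82. Cyp1a1, the most inducible member, had 3 reads in IG, 5 in NG and 4 in TG. Of 4 other genes that the receptor is known to induce, Nqo1, a quinone reductase, rose in NG against IG by 0.49, with 0.035, Tiparp, a regulator that turns the receptor off, fell by 0.84, with 0.000417, and Ahrr, its repressor, rose in TG against NG by 1.13, with 0.0459. Of the 4, 1 rose and 2 fell in NG against IG and 2 rose and 1 fell in TG against NG, and all 4 missed the threshold in TG against IG. In the same order, 40.1%, 45.3% and 11.3% of all genes were called. The 8 fibroblast and meningeal markers summed to 28013 in IG, 82845 in NG and 12749 in TG, the order of Cyp1b1. In NG against IG 5 of them rose and 1, Pdgfra, fell, and their part in the level of Cyp1b1 was not tested.

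The 3 Cyp26 enzymes break down retinoic acid. Cyp26b1 had 188 and 168 in IG, 116 and 131 in NG and 118 and 122 in TG, lower than IG at -0.53 and -0.56, with adjusted p-values of 0.0223 and 0.0475. These calls were lost in 5 and 6 of the 6 fits without 1 library. Cyp26a1 and Cyp26c1 were scarce and went the other way. Cyp26a1 had 1 read in IG, 16 in NG and 5 in TG, with adjusted p-values of 0.00247 for NG against IG and 0.0435 for TG against NG, and Cyp26c1 had 1, 11 and 0 reads, with 0.0099 and 0.00263. Of 9 genes that make, bind or import retinoids, 2 rose and 5 fell in NG against IG, 3 rose and 5 fell in TG against NG, and 1 rose and 7 fell in TG against IG. In the same order, 40.1%, 45.3% and 11.3% of all genes were called. Stra6, the importer of retinol, had 646 and 679.8 in IG, 215 and 212 in NG and 311 and 354 in TG. Crabp1 and Crabp2, which bind retinoic acid in the cell, differed in TG against IG, at 0.57 and -1.35 on the log2 scale, with 0.0177 and 0.000185.

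Among the remaining roles levels were low. Of the vitamin D enzymes, Cyp2r1, a 25-hydroxylase, had means of 6.19, 8.59 and 4.29 in IG, NG and TG, and Cyp27b1, which makes the active hormone, 2.13, 2.18 and 5.37, and neither passed. Cyp24a1, which inactivates it, had 2 reads in IG, none in NG and 7 in TG, with an adjusted p of 0.00643 for TG against NG, and its exons overlap Pfdn4 on the other strand. Cyp17a1 and Cyp19a1, the lyase and aromatase of sex steroid synthesis, had at most 6 and 2 reads in a group, and Cyp17a1, with 5 reads in NG and 0 in TG, was called lower in TG at 0.0455.

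Cyp2s1 and Cyp2t4 were highest in TG. Cyp2s1, an enzyme of epithelia, had 65.8 and 59.2 in IG, 63.2 and 42.2 in NG and 99.8 and 112 in TG, higher in TG than NG by 1.02, with an adjusted p of 0.00765. Cyp2t4 had 15.5 and 15.1, 9.72 and 10.8, and 29.8 and 29.7, higher by 1.45, with 0.0061, though its exons overlap Egln2 on the other strand. In both, TG lay above all other libraries, without passing against IG, at 0.0872 and 0.121. Cyp3a13, of the drug-oxidising family 3, had 58.8 and 51.0 in IG, 15.5 and 16.9 in NG and 46.7 and 43.4 in TG, with -1.70 in NG against IG, 1.42 in TG against NG and -0.28 in TG against IG, at 0.000881, 0.0019 and 0.585. Cyp2w1, the last of the orphan members, had no read.

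Nuclear receptors and other liver factors switch on many P450 genes. Of 16 such regulators, 6 rose and 6 fell in NG against IG, 1 rose and 8 fell in TG against NG, and 7 fell in TG against IG. In the same order, 40.1%, 45.3% and 11.3% of all genes were called. Hnf4a, the liver factor whose letters are marked in the windows above, had 101 and 81.2 in IG, 6.80 and 10.8 in NG and 0.804 and 0 in TG, with log2 fold changes against IG of -3.25 in NG, at an adjusted p of 0.000635, and -6.09 in TG, at 0.000151. Nr1i2 and Nr1i3, the receptors PXR and CAR that induce Cyp3a11 and Cyp2b10, had means of 10.1 and 18.6 in IG and of 3.49 or less elsewhere. Nr1h3, the oxysterol receptor LXRα, had 107 and 92.8, 363 and 430.2, and 66.0 and 59.3, with a rise of 1.98 in NG, at 3.44e-05, and a fall of 2.64 in TG against NG, at 4.47e-06.

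The partners of P450 enzymes did not share 1 direction. Of 8 genes of electron transfer, 3 rose and 2 fell in NG against IG, 1 rose and 3 fell in TG against NG, and 1, Cyb5r3, fell in TG against IG. Por, the reductase that serves microsomal P450 enzymes, had 1445 and 1615 in IG, 1082 and 1312 in NG and 1125 and 1261 in TG. Fdx1, the ferredoxin that serves the mitochondrial ones, had 238 and 302, 533 and 579.6, and 253 and 281, with a rise of 1.05 in NG against IG, at 0.000396. Pgrmc1, a haem-binding partner, fell in NG by 0.41, at 0.0021. Of 9 genes of haem synthesis and breakdown, 6 rose and 1 fell in NG against IG and 1 rose and 7 fell in TG against NG. Cpox, an enzyme of haem synthesis, was the gene that fell and then rose, at log2 fold changes of -0.36 and 0.45. Beside both lists, 40.1% of all genes were called in NG against IG, 45.3% in TG against NG and 11.3% in TG against IG.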

How the data were processed

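Per the labels' protocols, Trizol was used for RNA and an Illumina TruSeq kit for the libraries. The submitters' processing notes name mm10, Bowtie2 2.0.6 and HTSeq 0.6.1. Not given in the sources used here are the annotation and the strand setting of the counting. The 3 deposited tables hold, per the file headers, 2 read count columns, a log2 fold change and p-values for 2 groups each. As deposited, the signal in the count columns is not whole: in the authors' tables each value averages a group's 2 libraries after division by size factors set within that table. The log2 fold changes in the authors' tables divide one mean by the other. The p-values were adjusted by the authors, per the file headers.

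Each group stands in 2 tables with different factors, so its 2 means give 2 equations for the reads of its libraries. Solved for 35275 genes, these gave whole reads for 100% of genes within 0.001 reads, and means rebuilt from them differed from the deposited ones by at most 5.4e-15 in relative terms. The deposited means carry no sample numbers, and the libraries are called A, the deeper, and B.

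Median-of-ratios factors over 6 libraries scaled the reads. The test was limma 3.58.1 in R 4.3.3 on log2(normalised reads + 1), with a pseudocount of 1 and all 6 libraries in one fit, with a trend of the prior variance, 3 residual and 5.23 prior degrees of freedom. This scale understates the fold change of low genes. A call needed a two-sided adjusted p under 0.05, by Benjamini-Hochberg over 24511 genes with a read. Both steps were tested on simulated data. Counting intervals are exact at 95% and, like the floor of 3 reads over a group, cover counting error only. Symbols, positions and exon lengths come from GENCODE M21 on mm10, with a symbol for 34490 of 35275 genes. Shared 50-base words were those of a member's longest transcript that occurred in any transcript of another gene. Promoter windows come from RefSeq on GRCm38.p6, and motifs were searched with Python 3.11.15.

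The members, the lists and the letters searched were chosen with earlier results of these data known. Named are the members called in a comparison with a mean of at least 10 in 1 of its groups, at most 30 a comparison by size of change, the 10 with most reads per kb, all members of role lists of up to 6, and the called partner gene with the largest change each way. Some partner genes that this rule names are not reported here. Other members, partners and markers named were chosen after their values were seen. Alternatives were other pseudocounts, a filter, other scalings, the authors' calls, 4 libraries, a 2-fold minimum and each library left out.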

Additional observations from a re-analysis of the deposited data

How the results depend on the processing

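The number of P450 genes called in NG against IG was 49 and stayed between 38 and 51 under every alternative run, and between 40 and 45 without 1 library. For TG against NG the 26 calls became 13 in the authors' deposited table, and 12 to 21 without 1 library, with 12 and 17 without library A and B of TG. For TG against IG the 36 calls became 14 and 17 without library A and B of IG and 0 by limma without either TG library, a range of 0 to 25, where the lowest adjusted p of a member was 0.0551 and 0.0535. Such a fit has fewer libraries and takes the lone library of a group to vary as the others do. Over 171 named values and 15 alternatives, 2443 values were recomputed: 1180 kept a call, 988 were called neither before nor after, 267 lost a call and 8 gained one, and no called value changed sign. The authors' tables give an infinite fold for 52 others, which have no value here. No paired analysis was possible because the deposited means carry no replicate numbers. The planned edgeR and DESeq2 tests on recovered reads were not run. Depth limits the 30 members that stayed under 10 normalised reads.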

Other observations

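Among 22 further genes with P450 names that the rule leaves out, mostly pseudogenes and genes with an extra letter, 15 had no read. Cyp51, the lanosterol 14α-demethylase of cholesterol synthesis and the one P450 of this pathway, had 7584 and 7016 normalised reads in IG, 6308 and 5491 in NG and 7638 and 7261 in TG. It was lower in NG than in IG by -0.31 on the log2 scale, with a limma adjusted p of 0.0244, and higher in TG than in NG by 0.34, with 0.0141, so that NG was the lowest group, while IG and TG overlapped. Of 5 P450 genes with other symbols and epoxide hydrolases, 3 rose and 2 fell in NG against IG, 1 rose and 4 fell in TG against NG, and 2 fell in TG against IG. In the same order, 40.1%, 45.3% and 11.3% of all genes were called. Ptgis, prostacyclin synthase, and Ephx2, the epoxide hydrolase that breaks down the products of Cyp2j enzymes, were highest in NG. Ptgis had 346 and 357 in IG, 998 and 1139 in NG and 267 and 303 in TG, and Ephx2 had 151 and 168, 519 and 648, and 91.7 and 109.5. In both genes NG lay above all other libraries, with log2 fold changes against IG of 1.60, at an adjusted p of 1.51e-05, and 1.86, at 4.05e-05. Markers of fat, fibroblasts and smooth muscle were also highest in NG, and their part in these levels was not tested.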
